A study of Mus musculus with 28 samples.

Results

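Glra1, Cacng2, Nrxn3, Slc17a6, Pcsk2, Iqsec3, Caln1, Mtus2 and Rbfox3 are 9 mouse genes listed under neuronal signalling, out of 21887 protein-coding genes annotated on the assembled chromosomes. They were chosen by the Smchd1 summit scores of these same data, as coding genes of this function near high Smchd1 summits, so the presence and height of their Smchd1 summits are described here and support nothing further. For each gene, summits lying inside it or within 10 kb of either annotated end were collected from 11 deposited lists. One of the 9, Nrxn3, had no summit of the stricter Smchd1 list within that distance, so the name of the set does not hold for it.

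The cells were neural stem cells grown from E14.5 brains of male mice of the C57BL/6 x FVB/N strain, cultured as adherent cells with EGF and bFGF. Smchd1 wild-type cells were set beside cells homozygous for the MommeD1 allele of Smchd1, which the labels call null. Smchd1 ChIP-seq (2 wild-type and 2 null libraries), H3K4me3 and H3K27me3 ChIP-seq (2 libraries per genotype each), Ctcf ChIP-seq and MBD-seq (3 libraries per genotype) were made. MBD-seq captures methylated DNA on beads carrying the methyl-CpG binding domain of MBD2. Ctcf was precipitated in 4 groups of 2 libraries, which were untransduced wild-type cells, wild-type cells carrying a non-silencing shRNA, Smchd1 null cells, and wild-type cells carrying 1 of 2 Ctcf shRNAs. Per the labels, the Smchd1 lists were called against Smchd1 ChIP in null cells and the Ctcf lists against the Ctcf shRNA libraries, whereas the histone and MBD lists were called against whole cell extract. The labels do not say whether the replicates came from separate embryos.

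Smchd1 is a non-canonical member of the SMC family of chromosomal proteins and is known for its part in silencing the inactive X chromosome and some autosomal gene clusters. Ctcf is a zinc-finger protein that binds a long sequence motif and marks many chromatin loop anchors and insulators. H3K4me3 marks active and poised gene starts, and H3K27me3 is the mark laid down by Polycomb complexes. Most of the 9 genes are best known from neurons. Their products there receive transmitter, organise synapses, load or process released signals, sense calcium or regulate splicing. Mtus2 is set apart, its product being a microtubule-associated protein. Neural stem cells are progenitors of neurons.

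Each list pools the libraries of its group, so a gene has 1 set of summits per list, with no replicate value, no spread and no test between groups. The score of a summit is the authors' own value, the −log10 of a p or q value at the peak's highest point, and it is used here only to place a summit within its own list. Counting assembled chromosomes alone, Smchd1 had 407 summits at a threshold of 5e-4 and 1105 at 5e-3. The Ctcf lists held 8292 (untransduced wild type), 20483 (non-silencing wild type) and 11920 (null) summits. The H3K4me3 lists held 23449 (wild type) and 24201 (null), the H3K27me3 lists 732 and 77, and the 2 MBD lists 156188 and 126631. The MBD samples titled null cite the list named WT and the wild-type samples cite the list named D1, so both lists are called by their names and no genotype is read from them. Of the 9 neural stem cell markers examined, 8 had an H3K4me3 summit within 2 kb of their start in wild-type cells and 7 in null cells. Of the 6 neuron markers 4 did in both, 1 of 3 oligodendrocyte markers did in both, and none of the 3 astrocyte, 3 microglia and blood or 2 endothelium markers did. Rbfox3, itself one of the neuron markers, was among those without at its tabled start. Of the stem cell markers, Msi1 lacked such a summit in both genotypes and Pax6 in null cells. As a wider base, 67.1% (wild type) and 66.8% (null) of coding genes had H3K4me3 inside or within 10 kb. The share of all coding genes within 2 kb of a start was not taken, so the marker counts are no test of cell type.

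The stretches just upstream of 3 of the gene starts are printed because Smchd1 summits fell on or beside them, and because they differ in what else was called there. All 3 come from RefSeq's promoter table for GRCm38.p6, read on the strand of the gene, and end at the base before the annotated gene. Capitals mark matches on either strand to AGNNGGC, central letters of the Ctcf motif, which 59.8% of the table's 32851 windows of 300 bases also hold, so that a match is a description and not a site. Searches for AGGGGGC (a narrower form of it, in 10.6% of windows), for the motif CAGCACC (7.14%) and for the motif GGACAG (22.2%) found none in these stretches.
Mtus2, chr5:147957070-147957274, plus strand: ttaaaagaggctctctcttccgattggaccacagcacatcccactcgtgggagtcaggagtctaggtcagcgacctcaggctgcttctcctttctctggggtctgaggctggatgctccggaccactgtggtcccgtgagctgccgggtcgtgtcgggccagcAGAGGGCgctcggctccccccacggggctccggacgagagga
Pcsk2, chr2:143545883-143546132, plus strand: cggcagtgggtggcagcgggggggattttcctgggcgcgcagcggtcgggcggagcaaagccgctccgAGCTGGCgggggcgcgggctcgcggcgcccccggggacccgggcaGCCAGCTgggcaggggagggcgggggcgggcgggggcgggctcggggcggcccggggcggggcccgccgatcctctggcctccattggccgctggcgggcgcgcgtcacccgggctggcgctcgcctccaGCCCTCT
Slc17a6, chr7:51621580-51621829, plus strand: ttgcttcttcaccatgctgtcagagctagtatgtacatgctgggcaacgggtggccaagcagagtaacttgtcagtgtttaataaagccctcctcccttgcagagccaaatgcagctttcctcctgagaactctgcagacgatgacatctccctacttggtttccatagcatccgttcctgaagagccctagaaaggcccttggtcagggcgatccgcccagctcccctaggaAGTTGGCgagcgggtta
The Mtus2 stretch holds both a Smchd1 summit and a Ctcf summit of all 3 Ctcf lists. The Pcsk2 stretch holds a Smchd1 summit, has H3K4me3 summits on either side and no Ctcf summit nearby. The Slc17a6 stretch ends at a start with a Smchd1 summit 46 bp downstream, where neither Ctcf nor H3K4me3 was called.

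Among the 407 Smchd1 summits of the stricter list, 15 lay at 8 of the 9 genes. Over all coding genes 1.11% had such a summit, and since this list chose the genes nothing is read from the difference. With the list called at 5e-3, all 9 genes had a summit, 18 in total, against 3.07% of coding genes. The genes supplied 6 of the 20 highest scores of the stricter list and 7 of the 21 highest, from 6 different genes. Scores at the genes ran from 20.75 at Glra1 down to 4.42 at the weakest of 4 Rbfox3 summits. Next in the upper group came Cacng2 (17.34), Mtus2 (16.86), Caln1 (15.59), Iqsec3 (14.04) and Pcsk2 (13.77 and 13.59). Slc17a6 and Rbfox3 had no summit above 9.09, so the set is uneven in the very value that chose it. No difference between neighbours in this order can be tested, since each value comes from pooled libraries.

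**Figure D1:**
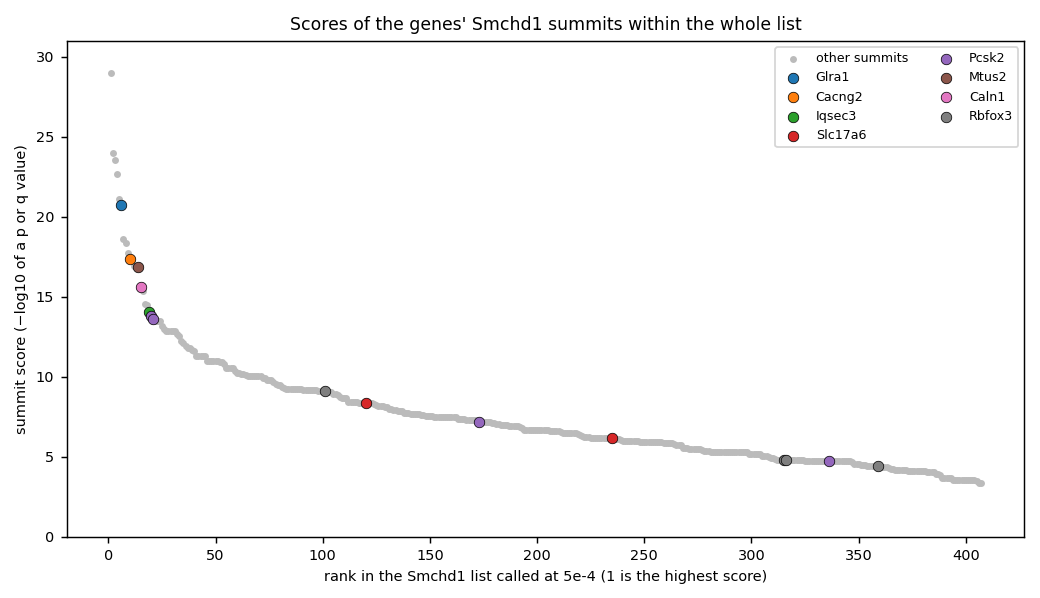
Score of each of the 407 summits in the Smchd1 list called at 5e-4 (vertical axis, −log10 of a p or q value) against its order in the list (horizontal axis, tied scores placed next to each other); coloured points are the 15 summits at the named genes and grey points all others. Points of Glra1, Cacng2, Mtus2, Caln1 and Iqsec3 and the Pcsk2 points of 13.77 and 13.59 lie on the steep left side. The other Pcsk2 points lie at 7.19 and 4.7, and all points of Slc17a6 and Rbfox3 lie at 9.09 or less.

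A Smchd1 summit sat within 1 kb of an annotated end at 6 of the 9 genes. Of the 15, 10 lay inside the gene and 5 outside it, and 8, 3 of them neighbours at Pcsk2, were within 1 kb of an end of their gene. The share of all Smchd1 summits near a gene end was not taken, so this placement is a description only. Counting summits within 1 kb of each other once leaves 13 in all. Of the 15 counted singly, 7 summits from 5 genes were within 1 kb of a RefSeq start of the gene itself. Glra1 has no entry in that start table. Counting starts of any gene, 8 of the 15 summits were within 1 kb of one, against 23.4% of the 398 Smchd1 summits on chromosomes that the table covers. The 3 neighbours at Pcsk2 are among these 8. An annotated long non-coding RNA gene contained 8 of the 15, against 18.2% of all 407. These 8 came from Cacng2, Slc17a6, Pcsk2 and Rbfox3, and 4 of them shared the single transcript unit Pcsk2os1, so they are not 8 separate places. For starts and for non-coding genes alike, the 15 were kept for lying at a chosen gene. The wider list holds summits anywhere, also far from genes, so nothing is read from these differences. The genes are also long, with a median of 270.2 kb (49.3 to 1612.2 kb) against 17.2 kb for all coding genes, and a longer window holds more summits of any list.

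**Figure D2:**
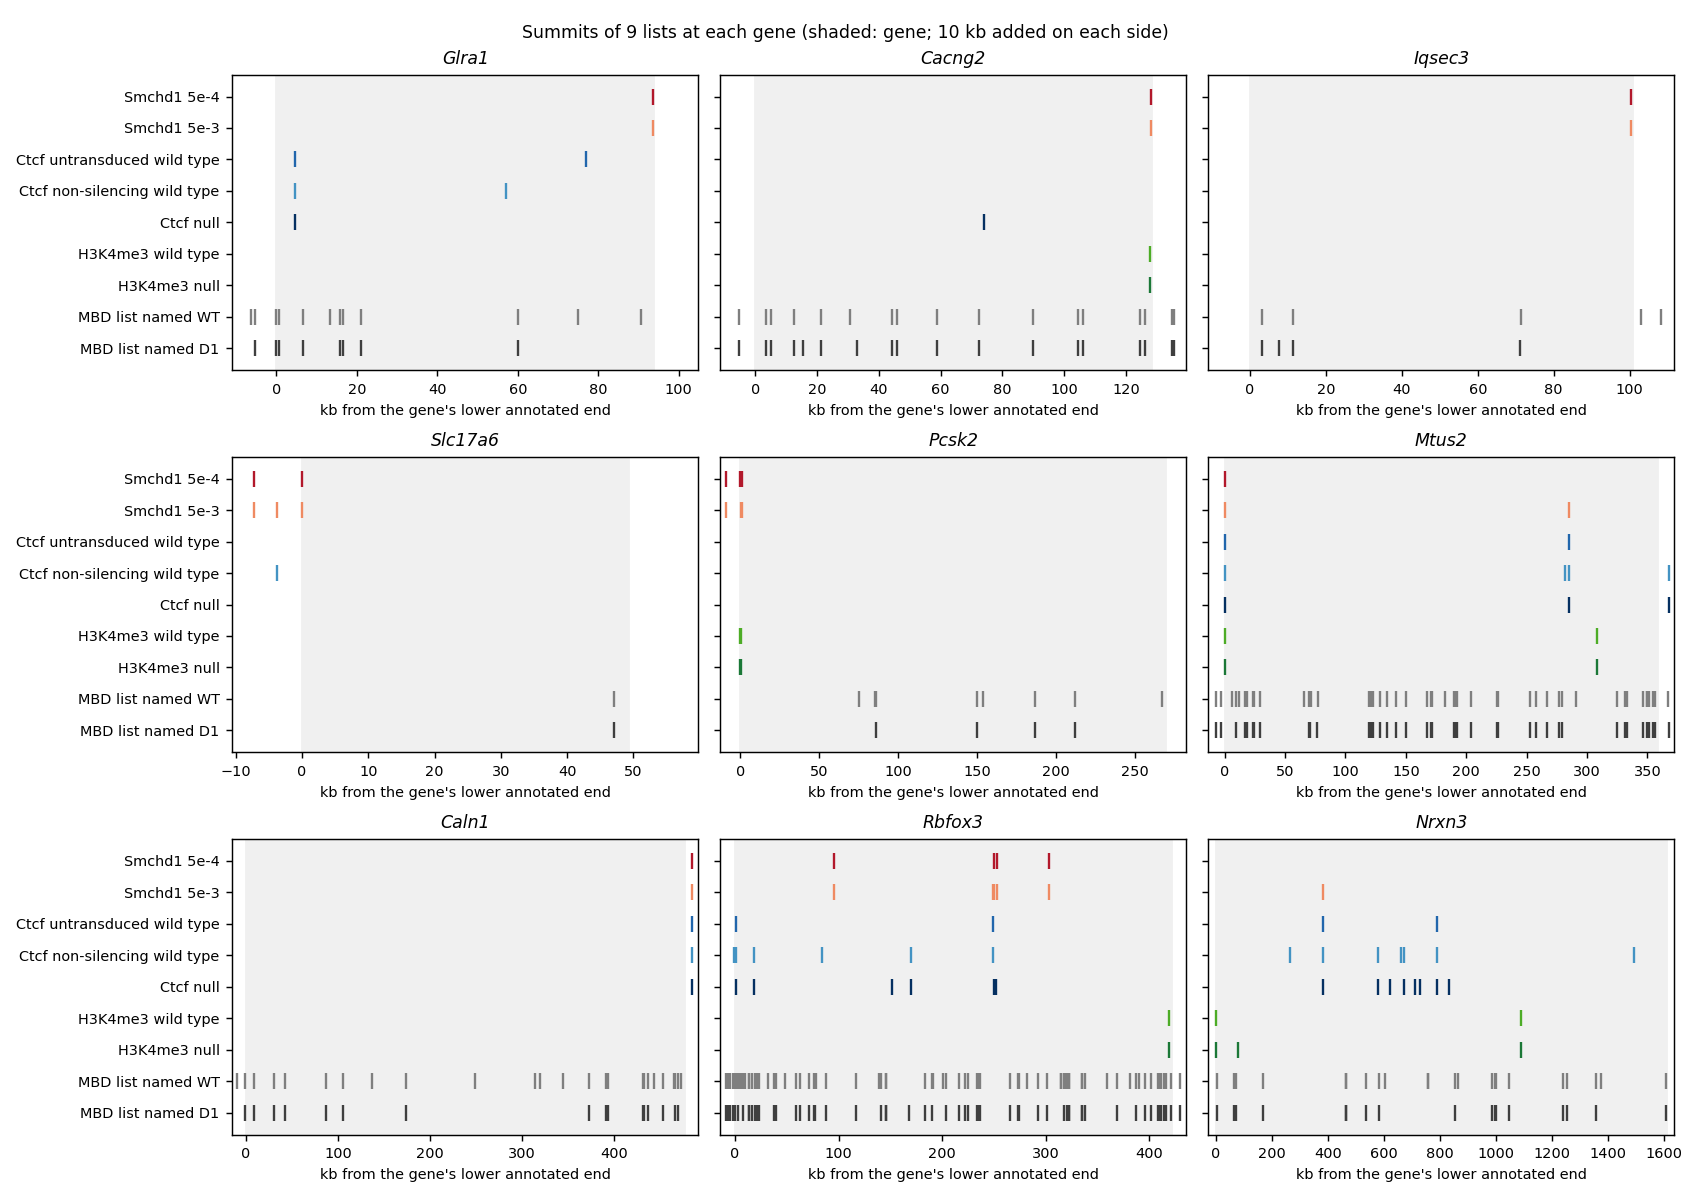
Positions of summits from 9 lists (rows) at each of the 9 genes (panels), as kb from the gene's lower annotated end; grey shading is the gene, 10 kb is added on each side, and the 2 H3K27me3 lists are left out because they had no summit there. Smchd1 marks stand at a gene end in the panels of Glra1, Cacng2, Iqsec3, Slc17a6, Pcsk2 and Mtus2, beyond the end in Caln1, and within the gene in Rbfox3, and Nrxn3 has a mark of the 5e-3 list only.

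Among the receptor and synapse genes, Glra1 and Cacng2 each had 1 strong Smchd1 summit at an end, and Nrxn3 had none. Glra1 (chr11:55514239-55608198) encodes an alpha subunit of the glycine receptor, the chloride channel of fast inhibition in spinal cord and brainstem. Its summit lay at chr11:55607948 with a score of 20.75, the rank of 6 among 407, inside the gene and 250 bp from its upper end. No Ctcf summit stood there: the nearest were 16680 bp away in untransduced wild-type cells, 36606 bp away with the non-silencing shRNA and 88974 bp away in null cells. Ctcf was called instead near the opposite end of Glra1, 4.7 kb inside it, in all 3 lists with scores of 6.08, 15.4 and 12.06 in the same order. H3K4me3 was not called at Glra1 in either genotype, with the nearest summits 138118 bp (wild type) and 137622 bp (null) away.

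Cacng2 (chr15:77991919-78120220, minus strand) encodes stargazin, the auxiliary subunit that carries AMPA-type glutamate receptors to the synapse. Its Smchd1 summit, at chr15:78119940 with a score of 17.34, lay 280 bp inside the annotated gene and 660 bp upstream of the start in the promoter table, within the long non-coding RNA gene A730060N03Rik. H3K4me3 summits stood beside it at 263 bp in wild-type cells (score 6.95) and 308 bp in null cells (score 9.08). The promoter window there held 20 CpG dinucleotides in 300 bases, and 73.5% of the table's windows held fewer. Cacng2 therefore combined Smchd1 and H3K4me3 at 1 end, with Ctcf more than 50 kb off in every list. The only Ctcf summit within the gene window was one of the null list, at chr15:78066077 with a score of 5.56.

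Nrxn3 (chr12:88722701-90334935, plus strand) encodes a neurexin, a presynaptic adhesion protein that pairs with neuroligins, and is the longest of the 9 genes. The nearest summit of the stricter Smchd1 list, at chr12:88709471, had a score of 14.49 and the rank of 18, but lay 13230 bp outside the gene. Just inside the 10 kb limit, the most distant summit kept was that of Pcsk2 at 9429 bp with a score of 7.19. For the other 8 genes the next Smchd1 summit was 383.7 to 4205.9 kb away, so a wider limit of 50 kb adds a summit to Nrxn3 alone. A narrower limit of 2 kb leaves 12 summits at 7 genes, dropping the only one of Caln1 and the far upstream ones of Slc17a6 and Pcsk2. This summit coincided with Ctcf. The untransduced, non-silencing and null lists had summits 48, 27 and 3 bp from it, with scores of 10.49, 18.89 and 9.12. H3K4me3 and MBD summits stood 13.6 and 17.0 kb from it in both lists of each assay.

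Inside Nrxn3 the list called at 5e-3 had 1 summit, at chr12:89106613 with a score of 4.43. Ctcf summits of all 3 lists lay 8 or 9 bp from it, scoring 10.22, 9.58 and 9.12. Both Smchd1 sites at or near Nrxn3 were thus also Ctcf sites. H3K4me3 was called at the lower end of Nrxn3 (10.68 in wild type, 14.96 in null) and, more strongly, at an internal start 1089.5 kb along the gene (22.89 in wild type) or 1089.4 kb along it (31.72 in null). One more, weak H3K4me3 summit, at chr12:88800841 with a score of 3.62, was in the null list alone.

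Among the genes of transmitter loading and peptide processing, Pcsk2 carried a cluster of Smchd1 summits at its start and Slc17a6 a single one. Pcsk2 (chr2:143546133-143816284, plus strand) encodes a proprotein convertase that cuts prohormones and neuropeptide precursors in dense-core vesicles. It had 4 Smchd1 summits, all inside the antisense-named long non-coding RNA gene Pcsk2os1. Relative to the start they lay 9429 bp upstream (score 7.19), 221 bp upstream (13.77), 64 bp downstream (13.59) and 813 bp downstream (4.7). The 3 nearest were within 1 kb of the start, and the one at 221 bp upstream was in the 5e-4 list but not, at that exact position, in the 5e-3 list.

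H3K4me3 flanked the same Pcsk2 start. In wild-type cells its summits were at chr2:143545863 (score 17.5) before the start and chr2:143546274 (12.52) after it, and in null cells at chr2:143545687 (21.86) and chr2:143546236 (13.19). The distance from a Smchd1 summit to H3K4me3 was as short as 49 bp in the wild-type list and 39 bp in the null list. Ctcf was remote, the nearest summit of any list being 290447 bp from a Pcsk2 Smchd1 summit. The printed Pcsk2 stretch holds 3 of the matches in capitals, each at least 291264 bp from the nearest Ctcf summit of any list. This promoter was the richest in CpG of the set, with 36 CpG in 300 bases, more than in 93.8% of all windows, and a GC content of 76.3% against a median of 52.7%.

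Slc17a6 (chr7:51621830-51671126, plus strand) encodes a vesicular glutamate transporter, which fills synaptic vesicles with glutamate. Its summits in the stricter list lay 46 bp downstream of the start (score 8.32) and 7213 bp upstream (6.17), both inside the long non-coding RNA gene Gm33136. No H3K4me3 summit was within 127127 bp of the one at the start in wild-type cells. The start window had 8 CpG in 300 bases, more than 51.4% of windows, far fewer than that of Pcsk2. Between the pair, the 5e-3 list placed a further summit at chr7:51618102 (score 3.63), 34 bp from a Ctcf summit of the non-silencing list scoring 12.02. Neither of the other two Ctcf lists had a summit in the Slc17a6 window.

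The intracellular signalling genes Iqsec3 and Caln1 differed in where Smchd1 lay. Iqsec3 (chr6:121372927-121473738, minus strand) encodes an Arf guanine-nucleotide exchange factor of inhibitory synapses. Its 1 summit, chr6:121473249 with a score of 14.04, was 429 bp downstream of the start. Neither H3K4me3, H3K27me3 nor Ctcf was called within 10 kb of Iqsec3, and the nearest Ctcf summit to the Smchd1 summit was 35140 bp away. Its promoter window held 19 CpG, more than 71.9% of windows, so a CpG number close to that of Cacng2 went with no called H3K4me3.

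Caln1 (chr5:130369404-130846325, plus strand) encodes calneuron 1, a calcium sensor of the Golgi that is related to calmodulin. Its Smchd1 summit, chr5:130853564 with a score of 15.59, lay 7239 bp past the downstream end and 561 bp from the long non-coding RNA gene Gm40337. Ctcf summits coincided with it at 17 bp in untransduced wild-type, 4 bp in non-silencing and 19 bp in null cells. Their scores were 24.06, 27.94 and 30.98, and they ranked high within their own lists, where 1.53%, 1.66% and 0.445% of summits scored higher. They were also the only Ctcf summits in the Caln1 window, and H3K4me3 was not called in that window.

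Mtus2 (chr5:147957275-148316065, plus strand) encodes a microtubule-associated protein that tracks growing microtubule ends, and was the gene where all 3 marks met. Its Smchd1 summit at chr5:147957237 (score 16.86) lay 38 bp before the annotated gene and 83 bp upstream of the start in the promoter table. Summits of Ctcf lay 5, 3 and 16 bp from it with scores of 13.42, 25.63 and 20.25 in untransduced, non-silencing and null cells, and 14.4%, 2.35% and 2.31% of the respective lists scored higher. The capitals in the printed Mtus2 stretch, AGAGGGC at chr5:147957233-147957239, have their centre 1 bp from the Smchd1 summit and 6, 2 and 17 bp from those Ctcf summits. H3K4me3 stood 295 bp away in wild-type cells (score 10.25) and 187 bp away in null cells (22.83). H3K4me3 was also called 308.0 kb along Mtus2, at an internal start, in both genotypes (10.2 and 15.63). The 5e-3 list had no Smchd1 summit at that start, but 23067 bp before it had one at chr5:148242150 (score 5.06), 29, 42 and 35 bp from Ctcf summits of the 3 lists.

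Rbfox3 (chr11:118489760-118911597, minus strand) encodes the neuronal splicing factor recognised by the NeuN antibody. It had 4 summits of the stricter list, all deep inside the gene and none above 9.09: chr11:118585004 scored 9.09, chr11:118740171 and chr11:118743023 scored 4.79 each, and chr11:118793089 scored 4.42. The last lay in the long non-coding RNA gene Gm11750. The nearest of the 4 was 18018 bp from the tabled start of Rbfox3, unlike the strongest summits of Pcsk2, Mtus2, Iqsec3 and Cacng2. H3K4me3 was called 419.4 kb (wild type, 17.5) and 419.6 kb (null, 17.69) from the lower end, near the upper end of the gene and 148106 and 148294 bp upstream of the tabled start.

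At chr11:118740171 the Ctcf lists differed. The null list had a summit 7 bp away, scoring 16.07, and 5.86% of that list scored higher. The wild-type lists had theirs at chr11:118739066 (8.44, untransduced) and chr11:118739085 (10.79, non-silencing), 1105 and 1086 bp from the Smchd1 summit. The 5e-3 list placed another Smchd1 summit beside these wild-type positions, at chr11:118739052 with a score of 4.79. The null list had no summit there. Whether this shift of position exceeds the variation between libraries was not tested, because each list is a single pooled call.

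Taking the 15 summits as a group, sharing with Ctcf depended on the Smchd1 list. Within 1 kb, 2 of 15 had a Ctcf summit of the untransduced list, 2 of the non-silencing list and 3 of the null list, namely those of Mtus2 and Caln1 and, in null cells, 1 of Rbfox3. Over all 407 Smchd1 summits the shares were 22.1%, 43% and 34.6%. With the list called at 5e-3, 5, 6 and 5 of the genes' 18 summits had one. The share over all 1105 summits of that list was not taken, and the shares over the 407 are no base for these counts. H3K4me3 was within 1 kb of 5 of 15 in wild-type and 5 of 15 in null cells, from Cacng2, Pcsk2 (3 summits) and Mtus2, against 35.9% and 38.1% of all 407. These counts lie near those shares at 1 kb, but 3 of the 5 are neighbours at the Pcsk2 start. Within 250 bp the counts were 2 in wild-type and 3 in null cells, so no likeness is read from them. The 15 are not independent of each other, since 4 come from Pcsk2 and 4 from Rbfox3, and no test was made.

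**Figure D3:**
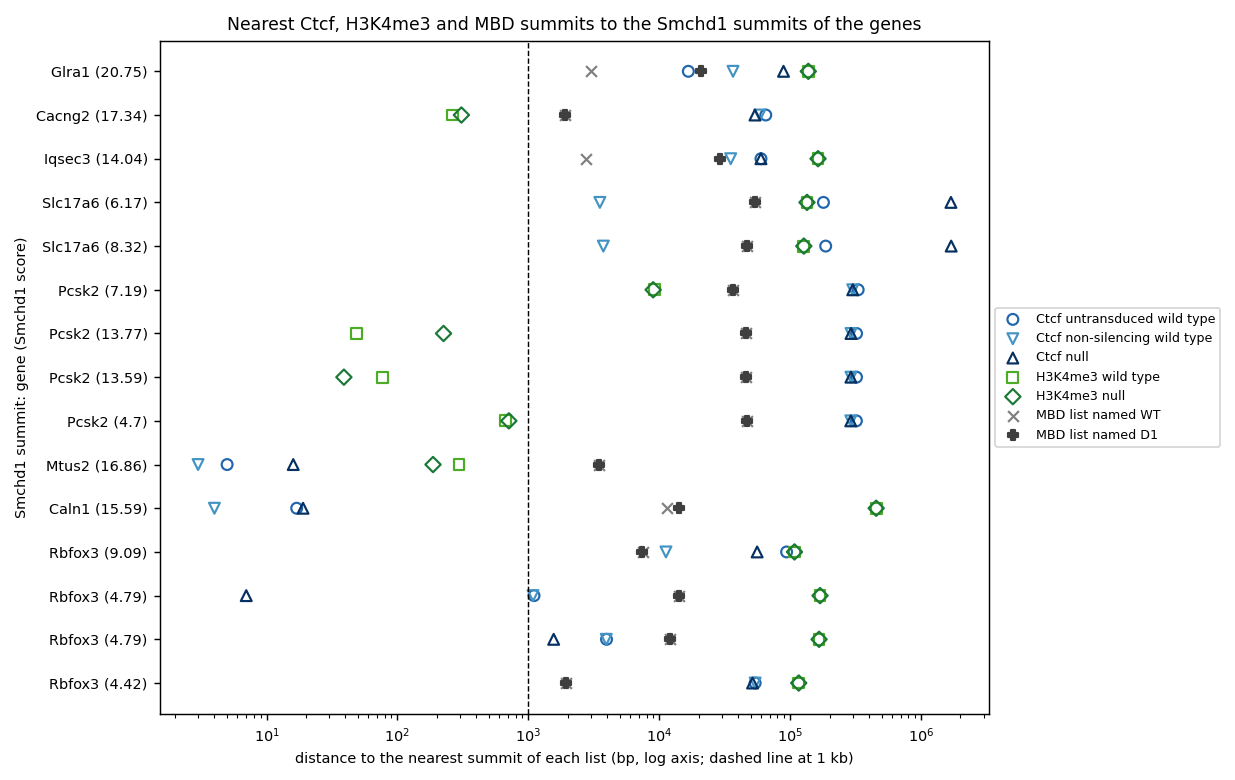
Distance in bp (log axis) from each of the 15 Smchd1 summits of the 5e-4 list (rows, with the gene and the Smchd1 score) to the nearest summit of 3 Ctcf, 2 H3K4me3 and 2 MBD lists (symbols); the dashed line is 1 kb. Left of the line stand Ctcf for Mtus2, Caln1 and, in the null list, 1 Rbfox3 summit, and H3K4me3 for Cacng2, Pcsk2 and Mtus2, while every MBD symbol is to its right.

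Counted by gene window, Ctcf was at 5, 6 and 6 of the 9 genes in the untransduced, non-silencing and null lists, against 29.5%, 50.6% and 37.2% of coding genes. Iqsec3 and Pcsk2 had none in any list. Per 100 kb, the 9 windows together held 0.244, 0.569 and 0.542 Ctcf summits, against 0.574, 1.318 and 0.804 over all coding genes, a sum to which Nrxn3, the longest gene, adds the most length. The median over the 9 genes was 0.123, 0.429 and 0.49 per 100 kb, against 0.0, 0.326 and 0.0 for the median coding gene. The summed and median densities thus point in opposite directions, and neither is read as a difference. Of the 21 non-silencing and 20 null Ctcf summits at the genes, 8 each had no partner within 1 kb in the other 2 lists, against 43.6% and 21.2% of those whole lists. The untransduced list had 1 of 9 without a partner, against 10% of its whole.

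H3K4me3 was called at 5 of the 9 genes in both genotypes, against 67.1% of coding genes in wild-type and 66.8% in null cells. Cacng2, Pcsk2, Mtus2, Rbfox3 and Nrxn3 carried it, and Glra1, Iqsec3, Slc17a6 and Caln1 did not. All 8 wild-type summits had a null summit within 1 kb, and 8 of the 9 null summits had a wild-type one, the exception being the weak one inside Nrxn3. H3K27me3 was at 0 of 9 in wild-type cells and 0 of 9 in null cells, where 1.24% and 0.32% of coding genes had a summit. With lists that short, 0 of 9 genes says little about the mark.

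Methylated DNA was called at all 9 genes, in a share of coding genes that was also high at 82.1% (list named WT) and 79.1% (list named D1). Density per 100 kb separated the genes. Rbfox3 had 17.88 and 14.48 summits per 100 kb in the lists named WT and D1, Mtus2 12.94 and 11.62, and Cacng2 11.46 and 12.14, all above the medians over coding genes of 7.691 and 5.939. Glra1, at 10.53 and 7.02, was also above both medians. Summed over all coding genes the densities were 8.987 and 7.402, and Glra1 was below the latter in the list named D1. The 9 windows together held 5.904 and 4.767. Nrxn3 (1.35 and 1.04), Slc17a6 (1.44 and 1.44), Pcsk2 (2.76 and 1.38), Iqsec3 (4.14 and 3.31) and Caln1 (5.03 and 3.22) were below them. Of the 218 summits in the list named WT, 80.7% had a partner within 1 kb in the list named D1, and of the 176 in the latter 97.7% had one in the former, near the 82.5% and 98.2% of the whole lists.

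**Figure D4:**
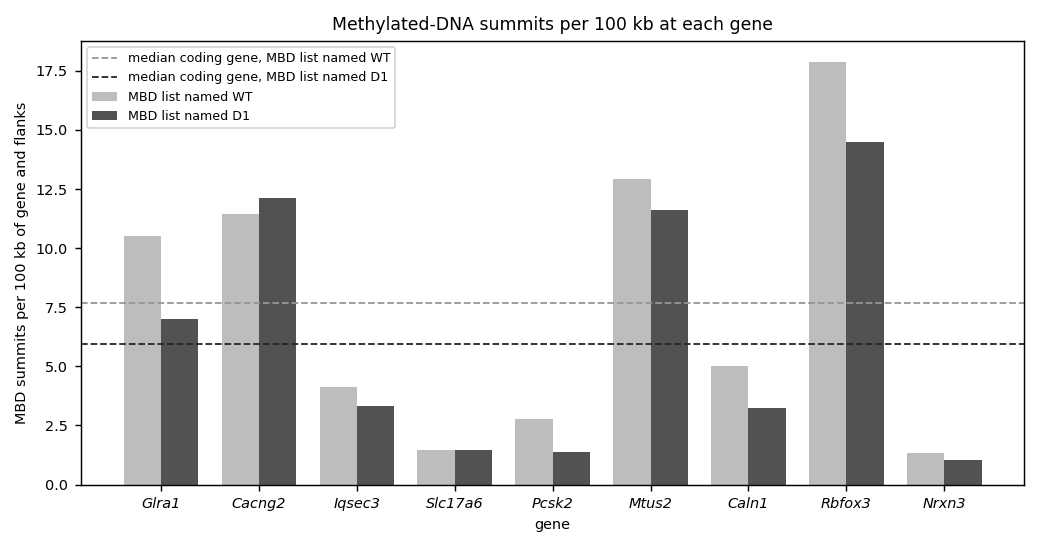
MBD summits per 100 kb of gene and 10 kb flanks (vertical axis, from 0) for each gene, with light bars for the list named WT and dark bars for the list named D1; dashed lines are the medians over 21887 coding genes, 7.691 and 5.939. Bars of Glra1, Cacng2, Mtus2 and Rbfox3 exceed the line of their own list, and those of the other 5 genes stay under it.

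None of the 15 Smchd1 summits had an MBD summit within 1 kb in either list, where 8.35% and 5.65% of all 407 did, shares small enough that 0 of 15 is not far from them. Within 5 kb, 5 of 15 had one in the list named WT and 3 of 15 in the list named D1. The share of all 407 within 5 kb was not taken, so nothing is read from these counts. The closest approach was at Cacng2, 1912 bp (list named WT, score 58.17) and 1899 bp (list named D1, score 40.39), followed by the Rbfox3 summit at chr11:118793089 with 1935 and 1954 bp. At Iqsec3 and Glra1 the lists differed, with MBD summits at 2755 and 3004 bp in the list named WT (scores 11.87 and 8.41) and at 29087 and 20957 bp in the list named D1. At Slc17a6 both lists gave 54344 bp for the upstream summit, the largest distance of the 15. Medians over the 15 were 12178 and 20957 bp.

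Relatives of the 9 genes were counted in the same way. Of 60 family genes outside the 9, covering glycine and AMPA receptor genes, neurexin partners, neuronal RNA-binding proteins, vesicular transporters, IQSEC factors, prohormone processing, calcium sensors and MTUS genes, 3 had a summit in the stricter list and 8 in the 5e-3 list, where 1.11% and 3.07% of coding genes did. The 3 were Cacng3, a relative of stargazin (8.32), Cbln1, a secreted neurexin partner (4.31), and Celf4, a neuronal RNA-binding protein (8.68). The 5e-3 list added Glra3 (3.76), Cbln2 (4.12), Rbfox1 (5.72), Elavl2 (3.29) and Pcsk1 (3.53). Ctcf was at 21, 33 and 24 of the 60 in the untransduced, non-silencing and null lists, against 29.5%, 50.6% and 37.2% of coding genes. H3K4me3 was at 48 (wild type, 67.1% of coding genes) and 50 (null, 66.8%), and H3K27me3 at 2 (1.24%) and 0 (0.32%). MBD was at 55 in the list named WT (82.1%) and 53 in the list named D1 (79.1%). The family genes were listed with results of these data known and were not tested against the 9. Their lengths were not compared with those of all coding genes. Since longer windows hold more summits of any list, nothing is read from these counts beside the percentages.

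Genes with the same set of lists were sought as those with a summit in exactly the same lists out of 11. The set of Iqsec3 (both Smchd1 lists and both MBD lists only) was shared by 5 other coding genes, led by 2410141K09Rik (highest Smchd1 score 10.33) and Cacng3 (8.32). That of Pcsk2, with H3K4me3 added, was shared by 10, led by Xkr4 (10.07) and Lrfn5 (9.25). That of Cacng2 was shared by 7, led by Ppp4r4 (10.98) and the GABA receptor gene Gabra5 (8.2). Glra1 and Caln1 had the same set as each other and as 8 more genes, led by Cpne4 (12.68), although Ctcf coincided with Smchd1 at Caln1 and not at Glra1. Mtus2 and Rbfox3 shared theirs with 51, led by Mid1 (28.97). Slc17a6 shared its set with 2, Apob (7.48) and Aym1 (4.79), and Nrxn3 with 95.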

How the data were processed

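ChIP-seq and MBD-seq of mouse neural stem cells were analysed from 11 summit lists. Per the submitters' processing notes CASAVA 1.4, MACS2 (version 2) and the mm10 build were used, and which aligner was used is not stated in the labels. The deposited score is the −log10 of a p or q value (the sources do not say which), per the labels and values, called on pooled libraries at the threshold of each list (5e-4 or 5e-3). Depth per library is unknown, and peak widths and heights were not used here. Summits on unplaced contigs were left out. Gene, long non-coding RNA and promoter positions came from RefSeq tables for GRCm38, with no exons, so exon or intron is not stated; 8 of the 9 genes matched the promoter table, with 12 windows of 300 bases, and motifs were searched on both strands. Counts and distances used Python 3.11.15, numpy 2.4.6, pandas 2.3.3 and matplotlib 3.10.9, and were checked on simulated summits against direct counting (300 of 300 cases equal). Tied scores share the lowest rank. All 9 genes are named, and family genes by having a Smchd1 summit; genes and lists were chosen with earlier results of these data known. No test over samples was possible.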

Additional observations from a re-analysis of the deposited data

How the results depend on the processing

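Of 91 recalculations of 18 counts under 10 settings, 77 stayed within 1.5 times the reported value and 14 did not. All 14 were counts of the genes' Smchd1 summits shared with another list. The 77 include counts that stayed at 0 (H3K27me3 and MBD sharing) or at all 9 genes (MBD), and Smchd1 counts that the choice of genes set. The 77 are therefore no measure of how stable the sharing counts are. With summits inside the gene only, sharing was 0 (Ctcf untransduced), 0 (Ctcf non-silencing), 1 (Ctcf null), 3 (H3K4me3 wild type) and 3 (H3K4me3 null), since summits of Mtus2, Caln1 and Pcsk2 that lie outside the gene were dropped. With the Smchd1 list called at 5e-3, Ctcf sharing was 5, 6 and 5 in the untransduced, non-silencing and null lists. Requiring 250 bp left 2 (wild type) and 3 (null) H3K4me3 sites, and allowing 5 kb gave 4 (Ctcf untransduced), 6 (Ctcf non-silencing), 5 (MBD list named WT) and 3 (MBD list named D1). Matched by exact position, 29 of 407 Smchd1 summits are in the stricter list alone, and 453 of the 727 positions in the looser list alone score above 3.301, the −log10 of 5e-4; a neighbouring summit may still lie within 1 kb. The genes' 4 summits in the looser list alone also scored above 3.301, at Mtus2 (5.06), Rbfox3 (4.79), Nrxn3 (4.43) and Slc17a6 (3.63). Scores may be p or q values. A summit missing from a list says only that none was listed at that position, not that its score was below the threshold. No paired analysis was possible because each list pools the libraries of its group, and leaving out a replicate could not be run for the same reason.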
